A study of Rattus norvegicus with 12 samples.

Results

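The MCM helicase and DNA synthesis genes are *Mcm2*, *Mcm3*, *Mcm4*, *Mcm5*, *Mcm6*, *Mcm7*, *Pcna*, *Rrm1*, *Rrm2* and *Tyms*, a list of 10 genes used in S phase, and a gene was read only where the annotation of the array ties a probe set to that gene symbol alone. Of the 10 genes, 9 had such a probe set, 1 each, among the 31099 probe sets of the array, which name 14218 genes in all. *Rrm2* was covered by 2 probe sets annotated to both *Rrm2* and *Rrm2l1*, and is not read here. In the comparison of 4 rat lines treated with an estrogen, no line passed the test for any of the 9 genes. Of all probe sets tested, 0.161% to 0.801% passed it in a line, so 0 of 9 is near the background. The pairwise correlations of the 9 genes from array to array were weak and of both signs.

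The 12 arrays measured RNA of the anterior pituitary gland of male rats, 3 arrays for each of 4 congenic lines. A congenic line carries a segment of one strain on the genome of another, here COP alleles on an ACI background: Ept1 carries it on chromosome 6, Ept2 and Ept6 each at a locus of their own on chromosome 3, and Ept9 on chromosome 10. All rats received a 5 mg implant of the synthetic estrogen diethylstilbestrol (DES) at 9 weeks of age, were injected with the thymidine analog BrdU at 50 mg/kg 4 hours before the end, and were killed at 21 weeks, after 12 weeks of treatment. No untreated rat and no ACI rat is among these arrays, so the comparison asks how the lines differ under DES and not what DES does. The labels speak of 3 biological replicates a line in one place and of fewer independent replicates in another, so part of the spread behind the p-values may be technical.

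The main hormones of the labelled tissue were present, with an exception. Prolactin (*Prl*) and growth hormone (*Gh1*), the products of lactotrophs and somatotrophs, together with the receptors *Drd2* and *Ghrhr* summed to signals of 46440 to 56755 and 28070 to 40938. *Pomc*, the hormone precursor of corticotrophs, was under the filter for dim probe sets, with signals of 10.6 to 152 and a median of 59. Of the posterior lobe and nerve markers, 4 of 6 were under the same filter. The somatotroph markers were higher in Ept2, at 36135 or more against at most 34502 in the other lines, and the corticotroph and melanotroph markers lower, at 1171 to 1247 against at least 1464. The red blood cell markers were lowest in Ept6, at 13281 to 14483 against at least 15654 elsewhere. Among all probe sets tested, 8.96% had some line wholly above or below the 9 other arrays, and these sums were seen among 12 marker lists. The gonadotroph markers summed to 964 to 2450 in Ept2 and at most 1118 in the other lines, and the thyrotroph markers to 7206 to 18784 in Ept2 and at most 9692 elsewhere. Apart from the gonadotroph sum, these sums of linear signals mainly follow a single gene. By median signal these were *Gh1* (33708, *Ghrhr* 160), *Pcsk2* (1514, *Tbx19* 133), *Hbb* (17551, *Alas2* 384) and *Tshb* (6857, *Dio2* 41.4). The Gapdh 3′ minus 5′ difference, a sign of RNA quality, was 0.38 ± 0.06 on the log2 scale in Ept2 (SD, n = 3) and 0.14 to 0.25 on average in the other lines. The part of these in the results was not tested. In whole tissue, fewer cells of a type and less RNA per cell cannot be told apart.

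Before S phase, the 6 proteins MCM2 to MCM7 are loaded as a ring onto DNA at replication origins, and once activated this ring is the helicase that unwinds the double helix ahead of the polymerases. PCNA is the sliding clamp that holds the polymerases on the template. Ribonucleotide reductase, whose large subunit is encoded by *Rrm1* and small subunit by *Rrm2*, makes the deoxyribonucleotides, and thymidylate synthase (*Tyms*) makes thymidylate. Transcription of many of these genes is switched on by E2F factors as cells pass from G1 into S phase. Estrogens drive the growth of the lactotroph population in the rat pituitary.

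Promoter windows of 8 of the 9 measured genes were in the RefSeq table for build GRCr8, each running from 250 bases before the annotated start to 50 after it (that of *Mcm4* was not used here). The E2F words TTTCCCGC, TTTCGCGC, TTTGCCGC and TTTGGCGC were searched on both strands, and 6 of the 8 windows held at least 1, those of *Mcm2*, *Mcm3*, *Mcm5*, *Mcm6*, *Mcm7* and *Tyms*, against 2.25% of all 27457 promoter windows. The sequences around them are printed because, of the motifs searched that these genes hold, the E2F words are the rarest among all promoter windows. The E2F words are in capitals, which run together where 2 words overlap on opposite strands, and up to 12 bases before the start are shown on either side.
*Mcm2*, chr4:122918095-122918120, minus strand: acgtgacccggtTTTCGCGCGAAAac
*Mcm5*, chr19:13488588-13488623, plus strand: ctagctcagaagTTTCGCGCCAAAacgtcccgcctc
*Mcm5*, chr19:13488793-13488812, plus strand: cccaggttggttTTTCCCGC
*Mcm6*, chr13:42404468-42404503, minus strand: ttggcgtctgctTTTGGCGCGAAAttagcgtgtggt
*Mcm7*, chr12:22163392-22163423, minus strand: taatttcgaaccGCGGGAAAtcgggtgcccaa
*Mcm7*, chr12:22163211-22163242, minus strand: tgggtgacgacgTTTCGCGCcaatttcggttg
*Tyms*, chr9:120776101-120776132, minus strand: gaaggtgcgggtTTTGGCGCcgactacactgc

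The *Mcm2* match ended 2 bases before the annotated start and the second *Mcm5* match ran up to it, while the *Mcm3* match lay past the start and is not printed. The windows of *Pcna* and *Rrm1* held none of the 4 words. The CCAAT box (CCAAT) was in 6 of the 8 windows against 37.7% of all windows, and the GC box (GGGCGG) in 6 of 8 against 34.9%. The palindromic estrogen response element, GGTCA and TGACC with any 3 bases between them, was in none of the 8 and in 0.0255% of all windows. These matches describe letters in a window and do not show binding.

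*Mcm2* gave signals of 643, 740 and 654 in Ept1, 680, 521 and 545 in Ept2, 678, 740 and 577 in Ept6, and 709, 657 and 613 in Ept9. The Ept2 mean was the lowest, with 2 of its 3 arrays under every other array and the third inside the range of the other lines. Ept2 differed from the mean of the other lines by -0.20 on the log2 scale (SE 0.10, 95% interval -0.43 to 0.03, adjusted p = 0.416 by limma), and the exact permutation test of that difference gave an unadjusted p of 0.0545 over 220 choices of 3 arrays. Its gene lies on chromosome 4, outside the chromosomes that carry the COP segments.

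*Mcm4* gave signals of 718, 809 and 840 in Ept1, 696, 633 and 735 in Ept2, 813, 671 and 777 in Ept6, and 869, 733 and 653 in Ept9. *Mcm6* gave 667, 731 and 612 in Ept1, 530, 623 and 705 in Ept2, 607, 609 and 749 in Ept6, and 730, 684 and 552 in Ept9. Both genes had their lowest line mean in Ept2 and their highest in Ept1, as did *Mcm2*, and in both the lines overlapped. Ept2 differed from the other lines by -0.15 (SE 0.10, adjusted p = 0.545 by limma) for *Mcm4* and by -0.09 (SE 0.12, adjusted p = 0.776 by limma) for *Mcm6*, on the log2 scale.

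*Mcm7* had the tightest signals, with a range of 1164 to 1397 over the 12 arrays and a standard deviation within lines of 0.06 on the log2 scale. The 3 arrays of Ept1 gave 1364, 1397 and 1379, those of Ept2 1367, 1374 and 1384, those of Ept6 1269, 1309 and 1164, and those of Ept9 1343, 1229 and 1390. Ept6 was the lowest line: its 3 arrays lay under those of Ept1, with no overlap between these lines in 12.2% of all probe sets tested, and under those of Ept2, with none in 18.4%. An array of Ept9 fell inside the range of Ept6. Ept6 differed from the other lines by -0.12 (SE 0.06, 95% interval -0.26 to 0.02, adjusted p = 0.537 by limma) on the log2 scale, and the exact permutation test of that difference gave an unadjusted p of 0.0182, the lowest of any line and gene here. The exact permutation test among the 4 lines gave an unadjusted p of 0.0470 over 15400 partitions of the arrays. This was the lowest of the 9 genes in that test and the only one under 0.05, without any adjustment for the 9 tests, and limma's adjusted F test p for the gene was 0.626.

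*Mcm3* and *Mcm5* were more variable. *Mcm3* gave signals of 152, 138 and 225 in Ept1, 170, 160 and 200 in Ept2, 118, 217 and 185 in Ept6, and 224, 163 and 218 in Ept9. *Mcm5* gave 213, 229 and 212 in Ept1, 206, 243 and 162 in Ept2, 244, 282 and 229 in Ept6, and 327, 187 and 168 in Ept9. For each gene the widest spread within a line covered most of the whole range: the 3 arrays of Ept6 for *Mcm3*, and the 3 arrays of Ept9 for *Mcm5*, held both a value near the top and one near the bottom. The largest estimates were 0.21 in Ept9 (SE 0.18, adjusted p = 0.725 by limma) for *Mcm3* and 0.22 in Ept6 (SE 0.17, adjusted p = 0.685 by limma) for *Mcm5*.

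*Pcna* gave signals of 3458, 3690 and 3821 in Ept1, 3582, 3871 and 4149 in Ept2, 3768, 3713 and 3978 in Ept6, and 4057, 3858 and 4534 in Ept9. Ept9 had the highest mean and Ept1 the lowest. The arrays of these 2 lines did not overlap, as in 20.1% of all probe sets tested, and every other pair of lines overlapped. Ept9 differed from the other lines by 0.13 (SE 0.07, 95% interval -0.03 to 0.30, adjusted p = 0.554 by limma) on the log2 scale, and the exact permutation test of that difference gave an unadjusted p of 0.05. *Pcna* is the only measured member on chromosome 3, which carries the segments of Ept2 and Ept6. Its differences in those 2 lines were the smallest it showed, with -0.0019 in Ept2 (SE 0.07, 95% interval -0.17 to 0.16) and -0.02 in Ept6 (SE 0.07, 95% interval -0.19 to 0.14).

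*Rrm1* gave signals of 867, 918 and 888 in Ept1, 841, 954 and 799 in Ept2, 713, 997 and 729 in Ept6, and 892, 782 and 687 in Ept9. Ept1 was the most uniform line and Ept6 held both one of the lowest arrays and the highest. *Tyms*, close to the filter for dim probe sets at a signal of 65.2, gave 67.9, 108 and 63.2 in Ept1, 87.5, 81.1 and 130 in Ept2, 118, 153 and 60 in Ept6, and 72.0, 100 and 106 in Ept9. Ept6 held both its highest and its lowest array. The largest estimates were 0.13 in Ept1 (SE 0.11, adjusted p = 0.888 by limma) for *Rrm1* and -0.28 in Ept1 (SE 0.24, adjusted p = 0.878 by limma) for *Tyms*.

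**Figure D1:**
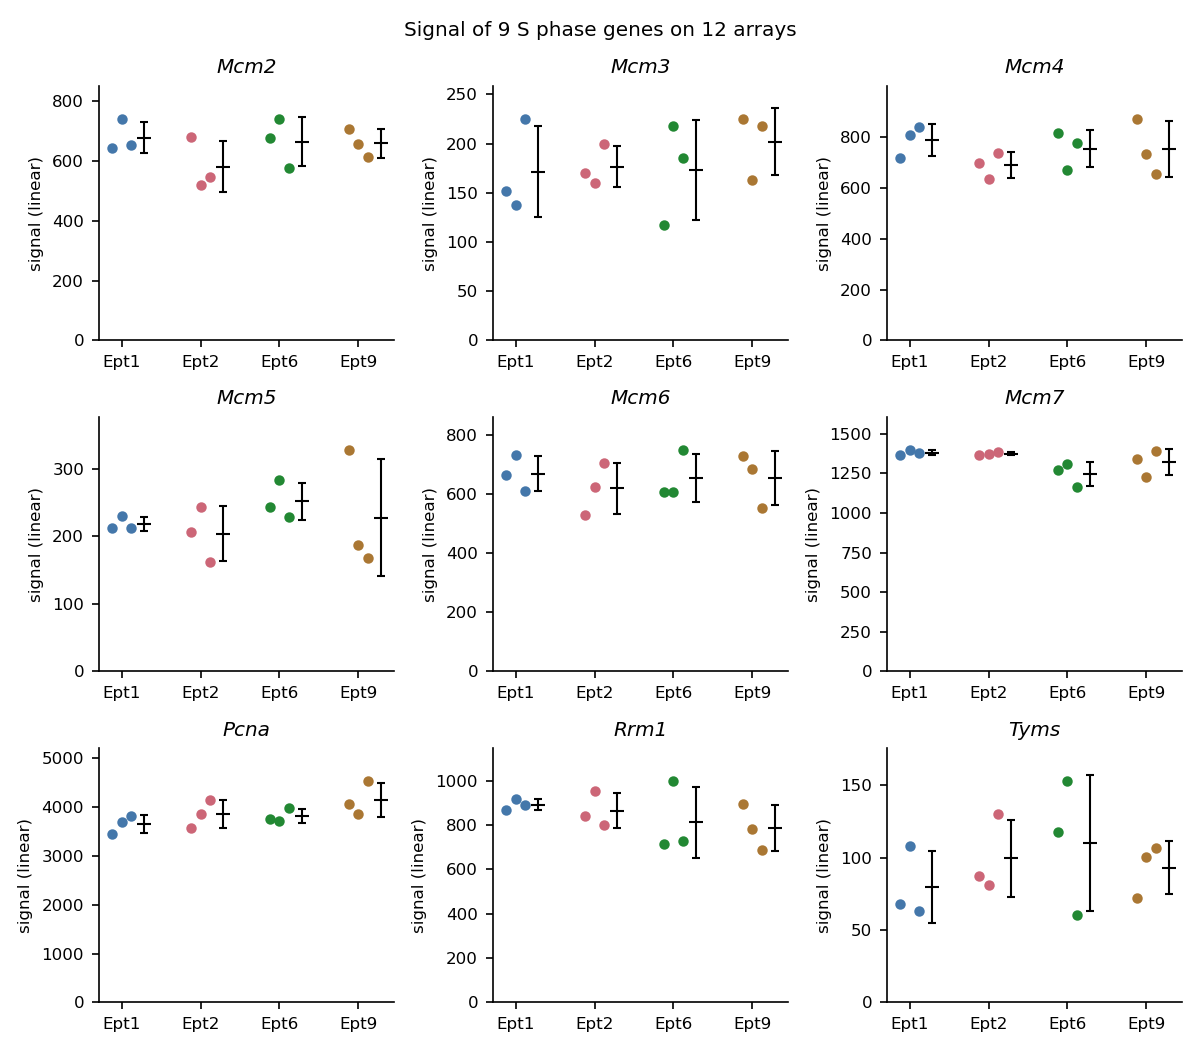
Signal on a linear scale of each of the 9 genes, with the 3 arrays of each line as points in the order of their replicate number and the mean ± SD (n = 3) in black; every vertical axis starts at 0. No line lies wholly above or wholly below the 9 other arrays in any panel.

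Across the 9 genes, none was called in the F test among the 4 lines by limma at an adjusted p under 0.05, and none had an unadjusted limma p under 0.05, where the background over all 18607 probe sets tested was 0.994% and 14.1%. The lowest unadjusted p in the F test was 0.277, and the adjusted p-values ran from 0.626 (*Mcm7*) to 0.942 (*Mcm6*). In the tests of each line against the mean of the other 3, none of the 9 was called in any line by limma, nor had an unadjusted limma p under 0.05, with a background of 0.193% called in Ept1, 0.801% in Ept2, 0.161% in Ept6 and 0.683% in Ept9, and of 7.49%, 14.4%, 10.7% and 11% at the unadjusted threshold. In none of the 9 did the 3 arrays of a line lie wholly above or below the 9 others, which held for some line in 8.96% of all probe sets tested. With under 1% of all probe sets called, 0 of 9 is a share near the background and is no result about these genes.

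The 6 pairs of lines gave no call either, by limma at an adjusted p or at an unadjusted p under 0.05 (33.1% of all probe sets had such an unadjusted p in at least 1 pair), so by this test no neighbours in the order of the lines differed beyond their spread for any of the 9 genes. The background in these pairs was 0.102% for Ept1 and Ept2, 0.215% for Ept1 and Ept6, 0.5% for Ept1 and Ept9, 0.656% for Ept2 and Ept6, 0.855% for Ept2 and Ept9, and 0.124% for Ept6 and Ept9. The lowest adjusted p of a member in a pair was 0.432.

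A missed threshold does not show that the lines were alike, so the intervals say how large a difference these arrays leave possible. For a line against the other 3, the widest bound of the 95% intervals was a 1.20-fold difference for *Mcm7*, 1.23-fold for *Pcna*, 1.27-fold for *Mcm6*, 1.29-fold for *Mcm4*, 1.30-fold for *Rrm1* and 1.34-fold for *Mcm2*. It was wider, at 1.53-fold, for *Mcm3* and *Mcm5*, and 1.74-fold for *Tyms*. Between pairs of lines the widest bound was larger for every gene, from 1.25-fold for *Mcm7* to 1.66-fold for *Mcm3*, 1.70-fold for *Mcm5* and 1.99-fold for *Tyms*. Over the 9 genes the median standard deviation within lines was 0.18 on the log2 scale, against 0.19 for all probe sets tested, and the median range of the 4 line means was 0.19 against 0.27.

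**Figure D2:**
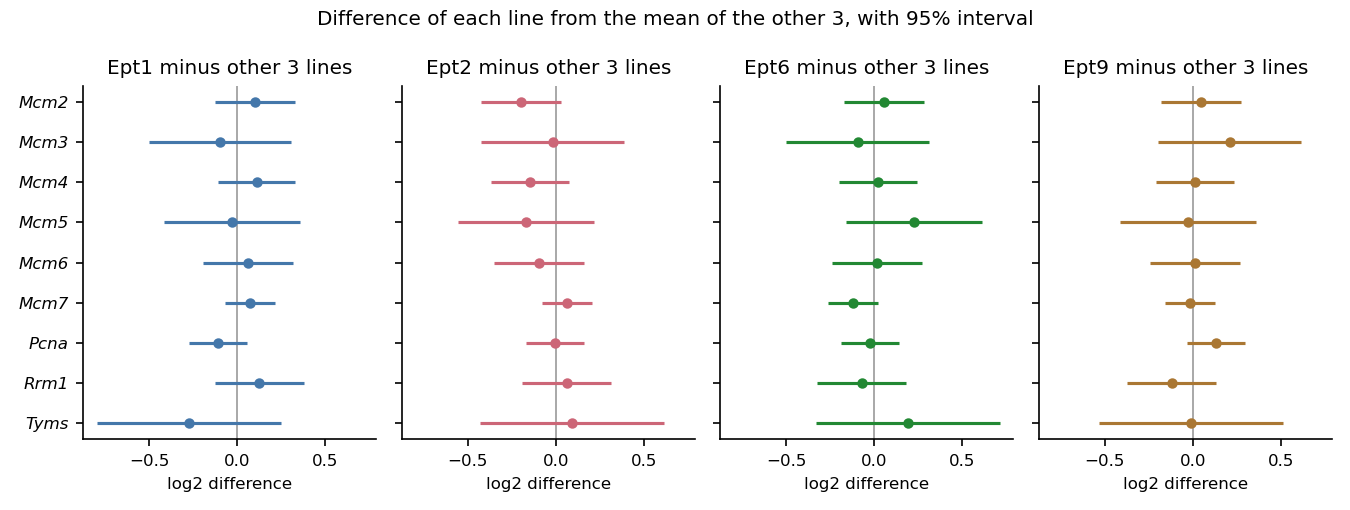
Difference of each line from the mean of the other 3 lines on the log2(signal + 16) scale, as points with 95% intervals from limma, for the 9 genes. All 36 intervals cross 0, and the widest belong to *Tyms*, *Mcm3* and *Mcm5*.

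The median difference of the 9 genes was 0.06 in Ept1, -0.02 in Ept2, 0.02 in Ept6 and 0.01 in Ept9 on the log2 scale, and the median over all probe sets tested was between -0.01 and 0.01. In Ept2, 6 of the 9 estimates were below 0, including *Mcm2*, *Mcm4*, *Mcm5* and *Mcm6*, and in each other line 5 were above 0. With the Gapdh difference added to the fit, the median of the 9 genes moved to -0.32 in Ept2 and 0.16 in Ept6, and still none was called.

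The other genes of DNA replication were read from lists. Origin licensing and firing, the steps before the helicase starts, had 17 genes tested, and the replication fork, the polymerases, clamp loader and fork factors, had 26. Nucleotide supply had 13 and chromatin assembly in S phase 12. None of these genes was called in the F test, in a line or in a pair by limma at an adjusted p under 0.05, and at an unadjusted p under 0.05 in the F test the counts were 1, 3, 1 and 0, against 14.1% of all probe sets. Their median difference lay between -0.07 and 0.09 in every line.

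The largest estimates among the fork genes were both in Ept6. *Tipin*, whose product stabilizes the stalled fork together with Timeless, gave 37.4, 22.1 and 48.4 in Ept6 and 52.8 to 106 in the 9 other arrays, so all 3 arrays of Ept6 were lowest, as in 1.07% of all probe sets tested. The difference was -0.97 on the log2 scale (SE 0.20, adjusted p = 0.123 by limma), and the Ept6 signals lie under the dim filter's level. *Pold1*, the catalytic subunit of DNA polymerase delta, gave 54.5, 113 and 98.0 in Ept6 and 115 to 214 in the other arrays, again all 3 lowest, with a difference of -0.80 (SE 0.19, adjusted p = 0.186 by limma). Neither passed the test. *Gins3*, a subunit of the GINS complex that joins the MCM ring to form the active helicase, had a difference of -0.45 in Ept9 (SE 0.15, adjusted p = 0.295 by limma).

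Among the E2F and Rb genes that control entry into S phase, 1 of 18 was called in the F test, where 0.994% of all probe sets were, and the same gene in Ept6 (0.161% of all) and in Ept2 (0.801% of all). This was *Ccnd2*, which encodes cyclin D2, a partner of the kinases that phosphorylate Rb. It gave signals of 6269, 5415 and 6031 in Ept1, 5661, 4900 and 5219 in Ept2, 8107, 8996 and 8000 in Ept6, and 7259, 6915 and 6834 in Ept9. All 3 arrays of Ept6 were above the 9 others, as in 0.86% of all probe sets tested. Ept6 was higher than the other lines by 0.48 (SE 0.07, adjusted p = 0.0464 by limma) and Ept2 lower by -0.42 (SE 0.07, adjusted p = 0.0385 by limma). Each of these lines is part of the reference of the other, and the arrays of Ept2 and Ept1 overlapped. In the pairs of lines, 1 gene of this list was called, lower in Ept2 than in Ept6, where 0.656% of all probe sets were called. A drop particular to Ept2 is not shown. The *Ccnd2* call in each of the lines Ept6 and Ept2 was lost in 11 of the 12 fits that left out 1 array. Adjusted p by limma in these fits was up to 0.217 in Ept6 and 0.128 in Ept2. The Ept6 call held without replicate 1 of Ept2, and the Ept2 call without replicate 2 of Ept1. The differences in these fits were 0.42 to 0.51 in Ept6 and -0.47 to -0.37 in Ept2. With the Gapdh difference as a covariate they were larger, 0.65 (SE 0.12) and -0.63 (SE 0.14), with wider errors and adjusted p of 0.241 and 0.279 by limma.

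The mitosis genes were read beside them. In Ept2, 20 of 21 had estimates below 0, with a median of -0.23 on the log2 scale against 0.01 for all probe sets tested, and 2 were called lower, where 0.801% of all probe sets were called in either direction. In Ept9, 18 of 21 were above 0, with a median of 0.15 against -0.01, and 1 was called higher, where 0.683% of all were called. The F test called 1 of 21, where 0.994% of all were called. In the pairs of lines 1 was called, lower in Ept2 than in Ept9, where 0.855% of all were called. The estimates were also mostly above 0 in Ept1 (16 of 21) and Ept6 (15 of 21), and the low Ept2 is part of the reference in all 3 comparisons. Compared directly, the median was -0.05 for Ept1 minus Ept9 and -0.04 for Ept6 minus Ept9, so a rise particular to Ept9 is not shown. *Bub1*, a kinase of the spindle checkpoint, gave 103, 98.7 and 115 in Ept2 and 140 to 248.5 in the 9 other arrays, a difference of -0.75 (SE 0.14, adjusted p = 0.0441 by limma). *Birc5*, which encodes survivin of the chromosomal passenger complex, gave 66.7, 97.7 and 82.9 in Ept2, 227, 164 and 172 in Ept9, and 105 to 137 in Ept1 and Ept6. Its difference was -0.65 in Ept2 (SE 0.12, adjusted p = 0.0389 by limma) and 0.75 in Ept9 (SE 0.12, adjusted p = 0.0257 by limma). Ept2 and Ept9 are each part of the reference of the other. For both genes the 3 arrays of Ept2 were the lowest, as in 1.68% of all probe sets tested, and for *Birc5* the 3 arrays of Ept9 were the highest, as in 1.3%.

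The calls of a line against the other 3 were mostly lost when an array was left out. The *Bub1* call in Ept2 held in 2 of 12 such fits (limma adjusted p from 0.0252 to 0.130), those without replicate 1 or 2 of Ept9. The *Birc5* call in Ept2 held in 1 of 12 (limma adjusted p from 0.0403 to 0.126), that without replicate 2 of Ept2. The *Birc5* call in Ept9 held in 6 of 12 (limma adjusted p from 0.0211 to 0.120) and was lost without replicate 1 or 3 of Ept1, replicate 1 of Ept6 or any array of Ept9. The direction was the same in all of these fits, with differences of -0.80 to -0.68, -0.76 to -0.53 and 0.61 to 0.83. With the Gapdh difference as a covariate the differences were -1.34 (SE 0.23), -0.63 (SE 0.26) and 0.74 (SE 0.14), with adjusted p of 0.205, 0.551 and 0.0710 by limma. *Mki67*, the proliferation antigen Ki-67, gave 476, 486 and 530 in Ept2 and 537 to 682 elsewhere, with a difference of -0.29 (SE 0.09, adjusted p = 0.163 by limma), and did not pass. *Bub1* lies on chromosome 3, which carries the segments of Ept2 and Ept6, and *Birc5* on chromosome 10, which carries that of Ept9. Ept6 carries a locus of its own there, so its *Bub1* signals of 171, 183 and 165, with no call, say nothing about the segment of Ept2. Whether either gene lies inside a segment was not looked up. A link of either gene to a segment was not tested. The difference between the mitosis genes and the MCM and DNA synthesis genes was not tested.

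**Figure D3:**
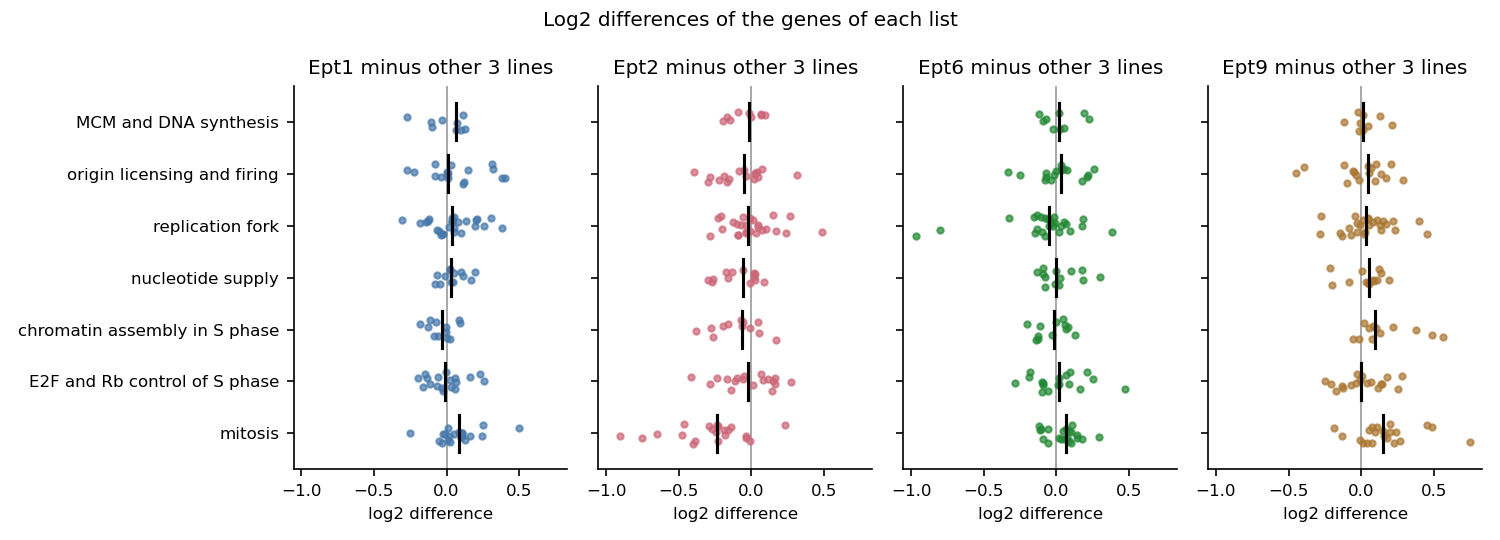
Log2 difference of each line from the other 3 for the tested genes of 7 lists, with 1 point a gene and the median as a black bar. The medians of the S phase lists stay within -0.07 and 0.09 of 0 in every line. That of the mitosis genes is -0.23 in Ept2, 0.15 in Ept9, 0.08 in Ept1 and 0.07 in Ept6.

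On single arrays, the mean of the 9 genes, each centred on its mean over the 12 arrays, was -0.08, 0.06 and 0.01 in Ept1, -0.06, -0.06 and 0.02 in Ept2, -0.03, 0.15 and -0.07 in Ept6, and 0.14, -0.04 and -0.04 in Ept9 on the log2 scale. The highest arrays were 1 of Ept6 and 1 of Ept9, and the other 2 arrays of those lines were below 0. The mean of the 21 mitosis genes was -0.37, -0.23 and -0.05 in Ept2 and 0.04 to 0.19 in Ept9, with -0.12 to 0.15 in Ept1 and -0.05 to 0.11 in Ept6. Over the 12 arrays the means of the 2 lists had a Pearson r of 0.20 and a Spearman rho of 0.06, given as a description, since lines and arrays are shared.

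**Figure D4:**
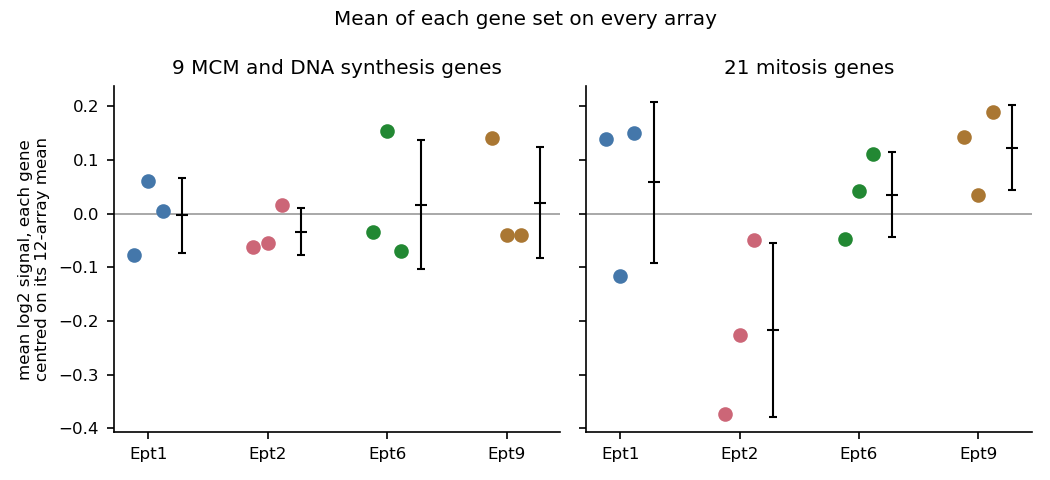
Mean log2 signal of the 9 MCM and DNA synthesis genes (left) and of the 21 mitosis genes (right) on each array, with each gene centred on its 12-array mean; points are arrays and black marks are the mean ± SD (n = 3). The left panel spans -0.08 to 0.15 with the lines overlapping, and the right panel has its lowest 2 arrays in Ept2.

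The covariation of the 9 genes was weak. Over the 36 pairs of genes, the Pearson correlation of log2 signals across the 12 arrays averaged 0.05 and ran from -0.51 to 0.53, with 20 pairs above 0 and 16 below. The average was 0.14 when each array was centred on its median. The 15 pairs within *Mcm2* to *Mcm7*, whose products form 1 ring, averaged 0.08. All probe sets tested averaged 0.0015, and the 210 pairs of the mitosis genes averaged 0.31, with 171 above 0. Pairs of the other S phase lists averaged 0.0007 for origin licensing and firing, 0.0035 for the replication fork and 0.14 for nucleotide supply. Chromatin assembly averaged 0.08, and E2F and Rb control -0.03. After the line means were taken out, the averages were 0.08 for the 9 genes and 0.19 for the mitosis genes.

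The strongest pair was *Mcm5* and *Rrm1*, with a Pearson r of 0.53 (permutation p = 0.077) and a Spearman rho of 0.55 (permutation p = 0.071) over 12 arrays, 0.58 without the 2 arrays farthest from the median of *Mcm5*, and 0.77 within lines. The pairs *Mcm4* and *Mcm6* (r = 0.52) and *Mcm3* and *Pcna* (r = 0.52) followed, and *Pcna* and *Rrm1* ran in opposite directions (r = -0.51, falling to -0.25 without the 2 farthest arrays). Adjusted over the 36 pairs, the lowest permutation p was 0.821 for Pearson and 0.977 for Spearman, so no pair passed.

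**Figure D5:**
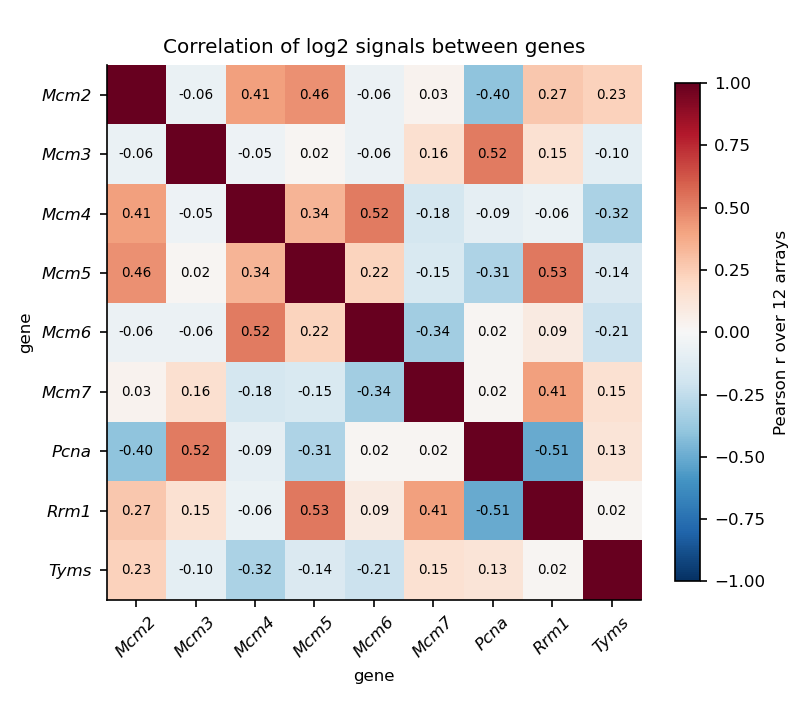
Pearson correlation of log2 signals over the 12 arrays for each pair of the 9 genes, from -1 (blue) to 1 (red). Positive and negative values are mixed, also among *Mcm2* to *Mcm7*, and none passes an adjusted p of 0.05.

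Against *Mki67* and *Top2a*, the topoisomerase of S phase and mitosis, 18 relations were computed. The strongest was *Mcm3* with *Top2a*, at a Pearson r of 0.62 (permutation p = 0.034) and a Spearman rho of 0.62 (permutation p = 0.034), with r = 0.64 without the 2 farthest arrays and 0.74 within lines. The adjusted permutation p was 0.602 for the Pearson and 0.610 for the Spearman correlation. *Rrm1* ran against *Mki67* (r = -0.47, permutation p = 0.124), and *Mcm4* ran with it (r = 0.51, permutation p = 0.095), though its r was 0.25 without the 2 farthest arrays and 0.27 within lines.

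By the mean of the 9 standardised log2 signals, the genes most alike among 10607 others over the 12 arrays were *Dscc1* (r = 0.87), *Smc2* (r = 0.86), *Grhpr* (r = 0.86), *Haghl* (r = 0.86), *Mybl1* (r = 0.84), *Actr10* (r = 0.84), *Tsr2* (r = 0.82) and *Rbm45* (r = 0.82). *Dscc1* encodes a subunit of a clamp loader for PCNA and was on the replication fork list, and *Smc2* encodes a core subunit of condensin. Of the 8, 1 was on a pathway list, where each list held 12 to 26 tested genes among the 10607. The median r was 0.19 for the mitosis genes and 0.02 for all genes, and r was over 0.7 for 54 genes and under -0.7 for 71. *Dscc1* gave 169, 241 and 188 in Ept1, 158, 204 and 172 in Ept2, 141, 235 and 152 in Ept6, and 260, 168 and 187 in Ept9. Within Ept6 and within Ept9 its highest array was also that of the mean of the 9 genes. Its selection by that mean makes this likely, so it is no support, and an array of Ept1 (241) was above its Ept6 peak (235). The most opposed were *Nol10* (r = -0.94), *Tent5a* (r = -0.91), *Sh3gl1* (r = -0.89) and *Kcnc4* (r = -0.86). These 12 were picked as the extremes of many genes over 12 arrays, so the values are a description.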

How the data were processed

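RNA of the anterior pituitary of male rats was hybridised by the authors to Affymetrix expression arrays with 1 colour, 12 in all. The deposited intensity values are linear signals per probe set, scaled before deposit, with a 2% trimmed mean of 500.18 to 500.19 on each array. No source used here names the software or the background correction. The number of arrays limits the precision. Samples were grouped by line from their titles. The values were used as log2(signal + 16) with no further scaling. Of the probe sets, 57 controls were dropped, and 12435 were not tested because their mean log2 lay below the 40th percentile, at a signal of 65.2, so that 18607 remained. Differences on this scale understate those of dim genes. The platform annotation names a single gene for 20832 probe sets, more than 1 gene for 436 and no gene for 9831.

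limma 3.58.1 in R 4.3.3 tested an F among the lines, each line against the other 3, and 6 pairs, with Benjamini-Hochberg adjustment over 18607 and a threshold of 0.05. Exact permutation tests were run in R, and correlations with 100000 resamples in Python 3.11.15, numpy 2.4.6 and scipy 1.17.1. A gene of a list was read from its brightest probe set. Named genes were all members, called list genes (or up to 5 by F test p) and the 8 most and 4 least alike, of which the text gives a part. The lists were origin licensing, replication fork, nucleotide supply, chromatin assembly, E2F and Rb control, mitosis, and 12 lists of cell type markers. The members and lists were chosen with earlier results of these data known. The limma test of a line against the other 3 was tried on simulated data with changes placed in Ept1. The F test, pairs of lines, permutation tests, correlations and promoter search were not tried on simulated data. As alternatives, the pseudocount was set to 1 and 64, arrays were quantile normalized or median centred, and other filters, a replicate block, an eBayes trend, array weights, the Gapdh covariate and leaving out each array were tried.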

Additional observations from a re-analysis of the deposited data

How the results depend on the processing

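No member was called in the F test, in a line or in a pair under any of the 22 alternative fits, which included leaving out each array, and the lowest adjusted p of a member was 0.398 in the F test, 0.245 in a line and 0.284 in a pair, all without replicate 1 of Ept2. The exact permutation test counted 1 member (*Mcm7*) at an unadjusted p under 0.05. The median difference of the members in Ept2 moved from -0.02 to -0.32 with the Gapdh covariate, which differs most in that line, and that in Ept6 from 0.02 to 0.16; the cause was not tested. Leaving out 1 array gave medians of 0.02 to 0.08 in Ept1, -0.10 to 0.013 in Ept2, -0.03 to 0.04 in Ept6 and -0.03 to 0.10 in Ept9. The mean pairwise correlation of 0.05 moved to 0.14 with median centring and ran from -0.01 to 0.08 when 1 array was left out. Same-numbered arrays of different lines had deviations correlated at 0.006 on average (-0.14 to 0.08), other arrays at -0.003 (-0.10 to 0.11). This gave no clear sign of a pairing by replicate number, which was not tested. With the replicate number as a block, 0 members were called, and the F calls over all probe sets went from 185 to 84. The block also ended the line calls of *Bub1* (adjusted p = 0.0705 by limma), *Birc5* (0.0909 in Ept2, 0.0715 in Ept9) and *Ccnd2* (0.0742 in Ept2, 0.130 in Ept6), as did no filter, at adjusted p of 0.0858 to 0.164, with the estimates as before. With no filter the F calls were 53, at the 60th percentile 282 (6 of the 9 members were then tested), with an eBayes trend 419, and with the Gapdh covariate 37. Averaging several probe sets of a member could not be run, since each had 1, and the block, trend, weights and covariate do not apply to the correlations.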
